A study of Homo sapiens with 6 samples.

Results

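N6-methyladenosine (m6A) is the most common internal modification of mRNA, and the genes described here are 10 of the proteins that write, remove and read it: METTL3, METTL14, WTAP, FTO, ALKBH5, YTHDF1, YTHDF2, YTHDF3, YTHDC1 and YTHDC2. They were taken by gene name from the deposited tables, and all 10 were found, each with 1 identifier, among 14270 genes that both tables list. The series concerns U2OS, an established human osteosarcoma cell line, and links DNMT1, which maintains cytosine methylation in DNA, with NSun2, which methylates cytosine in RNA. Its 6 samples were RNA brought down by co-immunoprecipitation of an NSun2 mutant in shDNMT1 cells (2 samples), RNA of the same kind from shNC cells (2 samples), input RNA from shDNMT1 cells (1 sample) and input RNA from shNC cells (1 sample). The shDNMT1 cells carry a DNMT1 knockdown and the shNC cells are labelled wild type. Per the treatment label, an NSun2 mutant plasmid was put into cells it names U6 and shDNMT1. The labels say neither which mutation this was nor what U6 stands for.

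The values were 2 tables of FPKM per gene, that is, fragment numbers adjusted for transcript length and for how many fragments were mapped. Neither table names a sample, a knockdown or an immunoprecipitate. They are called here by their length: the longer table lists 16824 genes and the shorter one 15167, and which kind of cell or RNA either table holds is unknown. Each gene had 1 value per table, so there was no replicate error and no test, and every difference below is between these tables only. The number of fragments behind a table, and so the counting error of a single value, is unknown. DNMT1 was listed at 9.36 FPKM in the longer table and 23.3 FPKM in the shorter table, and NSUN2, whose values can include plasmid RNA, at 1147 and 559 FPKM. Of 11 mesenchymal and osteoblast markers, 8 were listed in the longer table and 6 in the shorter table, and of the 6 in both, 3 were higher and 3 lower in the longer table. Vimentin (VIM) stood at 407 FPKM in the longer table and 262 FPKM in the shorter table. CD44 (124 FPKM in the longer table and 53.2 FPKM in the shorter table) and FN1 (11.7 and 4.84 FPKM) were at least 2-fold higher in the longer table on the log2(FPKM + 1) scale. The osteoblast marker ALPL (38.0 FPKM in the longer table and 78.4 FPKM in the shorter table) was at least 2-fold lower on it. So was the bone matrix gene COL1A1 (0.45 and 3.04 FPKM). The osteoblast factor RUNX2 was listed at 0.81 FPKM in the longer table and had no row in the shorter table. Of 10 markers of other cell types, 6 were listed in the longer table and 5 in the shorter table. The epithelial adhesion genes CDH1, at 0.39 FPKM in the longer table and 8.42 FPKM in the shorter table, and EPCAM, at 0.55 and 2.20 FPKM, both stood lower in the longer table by 2-fold or more. The epithelial keratin KRT8 stood at 1410 FPKM in the longer table and 1597 FPKM in the shorter table, while PTPRC, CD3E, PECAM1 and ALB had no row in either. What part these markers have in the values of the m6A genes was not tested.

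METTL3 is the catalytic subunit of the main m6A writer, METTL14 is its partner that helps to hold the RNA, and WTAP brings the complex to nuclear speckles. FTO and ALKBH5 are dioxygenases of the AlkB family that remove the methyl group. The YTH proteins bind m6A through a shared domain: YTHDF1, YTHDF2 and YTHDF3 are close paralogs in the cytoplasm, where YTHDF2 brings in the CCR4-NOT deadenylase and YTHDF1 has been linked to translation, YTHDC1 acts in the nucleus on splicing and export, and YTHDC2 is an RNA helicase known for its role in meiosis. The values used here are RNA levels of these genes, and m6A itself was not among them.

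RefSeq (GRCh38.p14) gave a promoter window, from 250 bases before to 50 bases after an annotated start, for 9 of the 10 genes, with 11 windows in all. Those of METTL3 and METTL14 are shown because these subunits form 1 complex but had very different levels, and capitals mark the ETS factor core CCGGAAG on either strand. The METTL3 window lies on chromosome 14 (21511291 to 21511590, minus strand) and the METTL14 window on chromosome 4 (118685142 to 118685441, plus strand).
METTL3: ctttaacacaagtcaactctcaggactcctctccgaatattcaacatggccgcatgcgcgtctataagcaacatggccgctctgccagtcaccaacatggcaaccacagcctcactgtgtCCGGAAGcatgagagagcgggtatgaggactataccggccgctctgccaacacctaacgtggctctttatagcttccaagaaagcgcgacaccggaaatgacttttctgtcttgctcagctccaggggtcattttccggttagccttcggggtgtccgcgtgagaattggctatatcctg
METTL14: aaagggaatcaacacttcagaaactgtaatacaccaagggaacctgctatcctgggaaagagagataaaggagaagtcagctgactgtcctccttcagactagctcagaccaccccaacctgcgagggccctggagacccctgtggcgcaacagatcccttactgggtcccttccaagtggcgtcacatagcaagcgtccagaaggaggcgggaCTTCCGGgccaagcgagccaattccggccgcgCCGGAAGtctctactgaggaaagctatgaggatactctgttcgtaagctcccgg
The METTL3 window held 1 match and the METTL14 window 2, while 10.3% of the 35116 promoter windows of the same length held at least 1. No other window of the 9 genes did. CCAAT was found in 6 of the 11 windows, against 34.6% of all windows, and GGGCGG in 8 of 11, against 45.0%. TATAAA was found in the METTL3 window alone among the 11, against 11.5% of all windows. Motifs were searched on both strands and were chosen after the windows had been read, so these matches are descriptions of the letters only.

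The windows of the nuclear reader YTHDC1 and of YTHDC2 are shown because both held the cyclic AMP response element TGACGTCA, in capitals, which 1.85% of all windows held and no other window of the 9 genes did. The YTHDC1 window lies on chromosome 4 (68350041 to 68350340, minus strand) and the YTHDC2 window on chromosome 5 (113513444 to 113513743, plus strand).
YTHDC1: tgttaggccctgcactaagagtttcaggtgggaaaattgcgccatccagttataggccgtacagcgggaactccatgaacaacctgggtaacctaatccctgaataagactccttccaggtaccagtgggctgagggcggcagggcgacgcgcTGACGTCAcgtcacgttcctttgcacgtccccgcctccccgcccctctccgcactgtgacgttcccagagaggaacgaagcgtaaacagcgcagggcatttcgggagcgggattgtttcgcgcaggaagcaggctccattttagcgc
YTHDC2: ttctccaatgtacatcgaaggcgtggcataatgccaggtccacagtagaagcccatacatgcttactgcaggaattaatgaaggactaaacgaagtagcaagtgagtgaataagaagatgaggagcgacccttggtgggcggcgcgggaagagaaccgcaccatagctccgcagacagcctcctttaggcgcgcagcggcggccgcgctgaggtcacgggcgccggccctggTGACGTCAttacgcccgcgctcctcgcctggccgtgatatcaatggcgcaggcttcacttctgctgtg
The ALKBH5 window (chromosome 17, 18183578 to 18183877, plus strand) belongs to the gene with the highest level, and capitals mark its CpG sites, the sequence that DNMT1 methylates.
ALKBH5: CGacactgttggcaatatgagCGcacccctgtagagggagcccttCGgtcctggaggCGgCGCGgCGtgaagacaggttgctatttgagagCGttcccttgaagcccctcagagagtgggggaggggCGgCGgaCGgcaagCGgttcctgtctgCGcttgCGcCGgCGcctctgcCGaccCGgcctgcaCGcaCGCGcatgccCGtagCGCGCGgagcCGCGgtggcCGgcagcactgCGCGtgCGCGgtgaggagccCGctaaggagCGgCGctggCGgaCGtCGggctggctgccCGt
It held 39 CpG sites, a number that 8.71% of all windows reached. The 11 windows held between 13 CpG sites, in METTL14, and 50, in YTHDF1, with a median of 25 against 14 over all windows. The CRE and the ETS core each contain a CpG, so these counts overlap. No methylation value was among the data used here.

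Of the writers, METTL3 (ENSG00000165819; chromosome 14, locus 21459020 to 21511375, hg38) was listed at 12.8 FPKM in the longer table and 15.4 FPKM in the shorter table. METTL14 (ENSG00000145388; chromosome 4, 118685368 to 118715433) was listed at 0.68 FPKM in the longer table and 0.85 FPKM in the shorter table, the lowest of the 10 in each and the one gene of the 10 under 1 FPKM. WTAP (ENSG00000146457; chromosome 6, 159669057 to 159789749) was listed at 11.3 FPKM in the longer table and 8.03 FPKM in the shorter table. METTL3 and METTL14 were thus lower in the longer table and WTAP higher. Their log2 ratios, longer over shorter on the log2(FPKM + 1) scale, were -0.25 for METTL3, -0.14 for METTL14 and 0.45 for WTAP, the last being the largest difference of the 10 in size. The added 1 FPKM shrinks the difference of a low gene, and without it METTL14 was at -0.33 and METTL3 at -0.27.

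The summed FPKM of the erasers was 93.6 in the longer table and 103.9 in the shorter table, and that of the writers 24.8 in the longer table and 24.3 in the shorter table. Most of the eraser sum was ALKBH5. ALKBH5 (ENSG00000091542; chromosome 17, 18087886 to 18209954) had 78.1 FPKM in the longer table and 91.8 FPKM in the shorter table, and ranked 763 in the longer table and 630 in the shorter table among the genes listed. FTO (ENSG00000140718; chromosome 16, 53597683 to 54158512) had 15.5 FPKM in the longer table and 12.1 FPKM in the shorter table. The erasers differed in opposite directions, with a log2 ratio of -0.23 for ALKBH5 and 0.34 for FTO. Of the summed FPKM of the 10 genes, ALKBH5 alone held 43.2% in the longer table and 50.9% in the shorter table, though the sums themselves were nearly equal, at 180.9 FPKM in the longer table and 180.2 FPKM in the shorter table.

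Among the cytoplasmic readers, YTHDF1 (ENSG00000149658; chromosome 20, 63195429 to 63216234) was listed at 27.2 FPKM in the longer table and 20.1 FPKM in the shorter table, a log2 ratio of 0.42. YTHDF2 (ENSG00000198492; chromosome 1, 28736621 to 28769775) was listed at 23.1 FPKM in the longer table and 19.3 FPKM in the shorter table, a log2 ratio of 0.25. YTHDF3 (ENSG00000185728; chromosome 8, 63168553 to 63212786) was listed at 7.39 FPKM in the longer table and 7.31 FPKM in the shorter table, a log2 ratio of 0.01. The paralogs kept the order YTHDF1, YTHDF2, YTHDF3 in both tables. YTHDF1 held 47.1% of their summed FPKM in the longer table and 43.0% in the shorter table, YTHDF2 40.1% and 41.3%, and YTHDF3 12.8% and 15.7%. The labels and file headers do not say how fragments that match more than 1 of these paralogs were counted.

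The remaining readers were low. YTHDC1 (ENSG00000083896; chromosome 4, 68310387 to 68350089) was listed at 1.68 FPKM in the longer table and 2.32 FPKM in the shorter table, a log2 ratio of -0.31, and was the gene of the 10 that stood furthest below 0. YTHDC2 (ENSG00000047188; chromosome 5, 113513683 to 113595285) was listed at 3.11 FPKM in the longer table and 3.04 FPKM in the shorter table, a log2 ratio of 0.02. YTHDC1 and YTHDC2 lay below the median of their table, 3.43 FPKM in the longer and 4.03 FPKM in the shorter, as did METTL14, and the other 7 lay above it in both. The order of the 10 levels was the same in both tables but for METTL3 and FTO, neighbours in that order, which changed places.

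**Figure D1:**
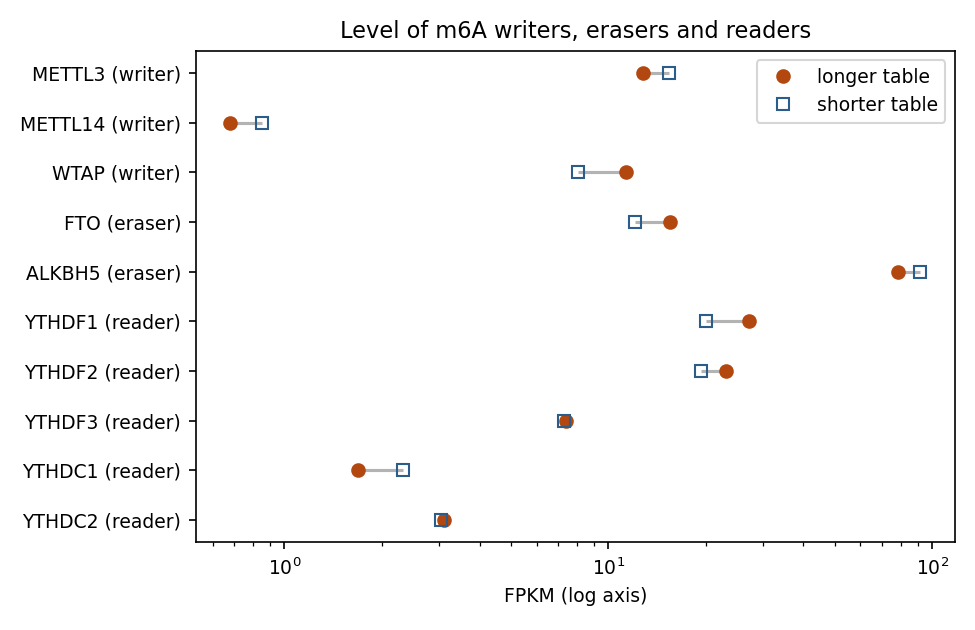
FPKM (log axis) of the 10 m6A genes, ordered by role, with filled circles for the longer table and open squares for the shorter table, 1 value each and no error bars. ALKBH5 lies furthest right at 78.1 and 91.8 FPKM, METTL14 furthest left at 0.68 and 0.85 FPKM, and the markers of YTHDF3 and YTHDC2 nearly coincide.

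None of the 10 was at least 2-fold apart, on the log2(FPKM + 1) scale or without the added 1, where 3.72% of the 14270 genes were on the first scale and 18.5% on the second. Among the 11416 genes with a mean of at least 1 FPKM, a level that 9 of the 10 reached in each table, the share without the added 1 was 10.7%. With 10 genes, a count of none is near these backgrounds and is no result about the 10. Higher values in the longer table were found for 6 of the 10, against 54.8% of all genes, and the median log2 ratio was 0.02 against 0.05 for all genes. The median size of the log2 ratio, leaving its sign aside, was 0.25 for the 10 and 0.30 for all genes. WTAP, the most different of the 10, was matched or passed in size of log2 ratio by 31.5% of all genes, YTHDF1 by 34.9%, FTO by 45.1% and YTHDC1 by 48.6%. When the median of all genes was taken from every ratio, 4 of the 10 were higher and 6 lower, since YTHDF3 and YTHDC2 took the other sign at -0.04 and -0.03, and the median of the 10 became -0.03.

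**Figure D2:**
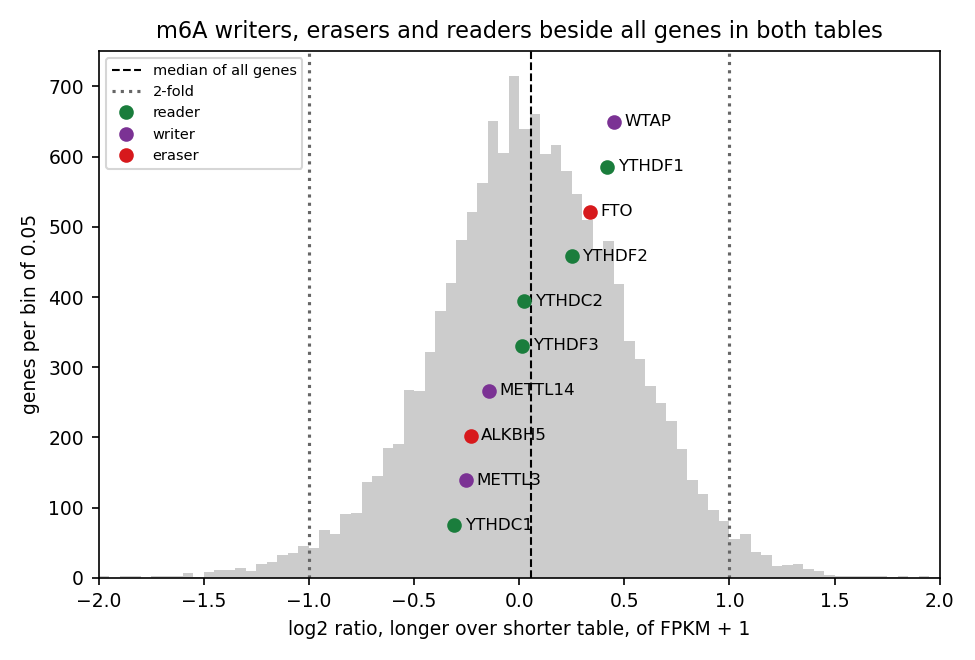
Grey bars give the number of genes per bin of log2 ratio (longer over shorter table, of FPKM + 1) among the genes in both tables, on an axis cut at 2 either way; coloured points give the m6A genes, placed by their ratio and stacked in its order with no meaning of height. All 10 lie between the dotted 2-fold lines, from -0.31 for YTHDC1 to 0.45 for WTAP.

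Ratios between genes inside a table do not depend on how the tables were scaled to each other. METTL3 was at 18.8 times the FPKM of METTL14 in the longer table and 18.0 times in the shorter table. Their proteins are known to work as a heterodimer, but RNA levels do not give protein amounts. METTL14 was also under 1 FPKM in each table, at unknown depth. ALKBH5 was at 6.11 times METTL3 in the longer table and 5.96 times in the shorter table. These ratios thus changed by 4.15% and 2.62% between the tables. Ratios that set WTAP or FTO, higher in the longer table, against a gene that was lower there changed more. METTL3 over WTAP was 1.13 in the longer table and 1.92 in the shorter table. WTAP over METTL14 was 16.7 and 9.40, and ALKBH5 over FTO was 5.03 and 7.58. YTHDC2 over YTHDC1, a ratio without WTAP or FTO, also differed, at 1.85 in the longer table and 1.31 in the shorter table. FTO over METTL3 was 1.22 in the longer table and 0.79 in the shorter table, the pair that changed places. The summed FPKM of the YTHDF readers was 12.0 times that of YTHDC1 and YTHDC2 in the longer table and 8.69 times in the shorter table. With no replicate, none of these changes can be set against an error.

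**Figure D3:**
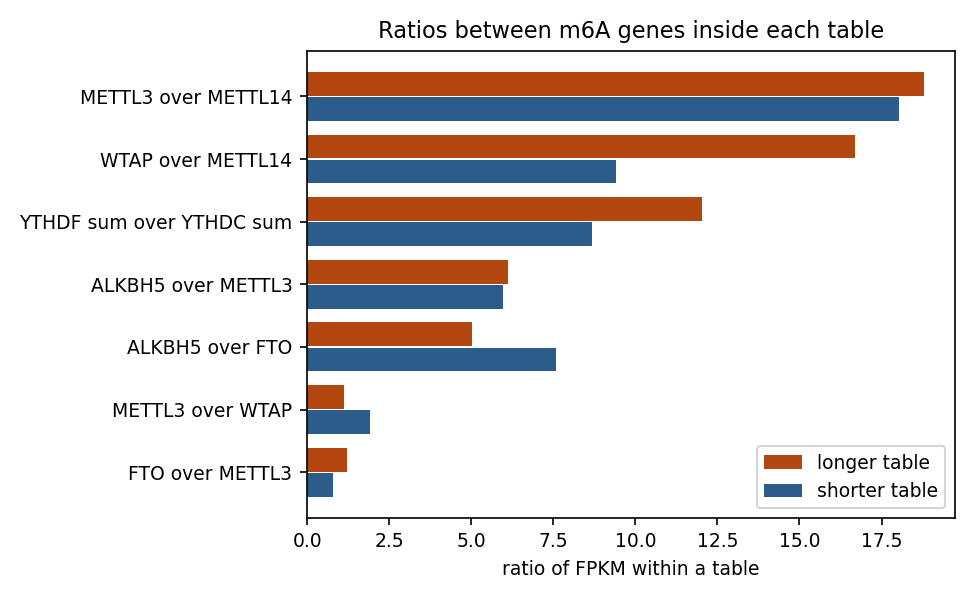
Ratio of FPKM between m6A genes inside a table (bars from 0; upper bar of a pair the longer table, lower bar the shorter table, 1 value each). METTL3 over METTL14 is 18.8 and 18.0, whereas ALKBH5 over FTO is 5.03 and 7.58 and WTAP over METTL14 16.7 and 9.40.

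The locus given for a gene was an interval shared with other genes for 4 of the 10, where fragments could have been divided between genes upstream. METTL3 shared its locus with TOX4, listed at 12.7 FPKM in the longer table and 11.6 FPKM in the shorter table, and with RAB2B at 4.53 and 3.89 FPKM, both higher in the longer table where METTL3 was lower. WTAP shared its locus with SOD2, TCP1 and ACAT2, of which SOD2 stood at 60.1 FPKM in the longer table and 50.1 FPKM in the shorter table. ALKBH5 shared its locus with DRG2, which was lower in the longer table as well, at 30.9 FPKM against 39.9 FPKM in the shorter table. Also there were RP11-258F1.1, at 0.08 FPKM in the longer table only, and RP11-258F1.2, at 0.08 FPKM in the shorter table only. FTO shared its locus with RPGRIP1L, at 0.44 FPKM in the longer table and 1.55 FPKM in the shorter table, and with 1 noncoding identifier under 1 FPKM. METTL14 and the 5 readers were alone at their locus.

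Ratios between the tables varied with the number of listed genes within 1 Mb, so the 10 genes were also set beside genes of like density. In 5 classes of about equal size, the median log2 ratio was 0.20 in the class with the fewest neighbours (0 to 9) and -0.12 in the class with the most (46 to 122). YTHDF1, with 60 listed genes around it, lay 0.54 above the median of its class on the log2 scale, the furthest above of the 10. YTHDC1, with 6, lay 0.50 below the median of its class, the furthest below. METTL3, with 16 neighbours, lay 0.43 below and WTAP, with 12, lay 0.27 above. ALKBH5, with 52, lay 0.11 below the median of the densest class, nearer to it than to the median of all genes. Whether neighbour density has a part in these values was not tested.

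A further 6 lists, 44 genes around the m6A pathway, were described in the same way, and 42 of the 44 were in both tables. Of these, 32 were higher in the longer table, where 54.8% of all genes were, and 10 were lower. Their median log2 ratio was 0.24 against 0.05 for all genes. Centring on the median of all genes made the counts 31 and 11, as CNOT1 took the other sign. At least 2-fold higher were 3 of the 42, against 2.04% of all genes, and none was at least 2-fold lower, against 1.68%. Without the added 1, MAT2B reached 2-fold as well. On that scale 715 of the 11416 genes with a mean of at least 1 FPKM were at least 2-fold higher. The 5 partners of METTL3, METTL14 and WTAP in the writer complex were close between the tables, 3 higher and 2 lower, with a median of 0.14. RBM15B, an adaptor that recruits the complex to RNA, was the highest of them at 19.1 FPKM in the longer table and 16.7 FPKM in the shorter table. CBLL1 (HAKAI), a subunit of the complex with a RING domain, had the largest ratio of them, 0.21, at 5.92 FPKM in the longer table and 4.98 FPKM in the shorter table. VIRMA, its scaffold, is listed under the older name KIAA1429, at 4.07 FPKM in the longer table and 4.23 FPKM in the shorter table. ZC3H13, which helps to keep the complex in the nucleus, stood at 0.965 FPKM in the longer table and 0.995 FPKM in the shorter table.

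Other RNA m6A methyltransferases held the largest differences among the enzymes. METTL5, which methylates 18S ribosomal RNA, was listed at 8.71 FPKM in the longer table and 2.97 FPKM in the shorter table, a log2 ratio of 1.29. It shared its locus with SSB, which was also higher in the longer table, at 10.4 FPKM against 6.38 FPKM. ZCCHC4, which methylates 28S ribosomal RNA and was alone at its locus, was listed at 3.22 FPKM in the longer table and 1.04 FPKM in the shorter table, a log2 ratio of 1.05, or 0.996 after centring. TRMT112, the small protein that stabilises METTL5, was the most abundant of the list and close between the tables, at 108 FPKM in the longer table and 101 FPKM in the shorter table. METTL16, the writer of U6 snRNA and of MAT2A mRNA, was at 9.95 FPKM in the longer table and 7.63 FPKM in the shorter table. PCIF1, which methylates adenosine next to the mRNA cap, was the one member of the list that was lower in the longer table, at 19.1 FPKM against 22.6 FPKM. In this list 5 of 6 were higher, against 54.8% of all genes, with a median log2 ratio of 0.38 against 0.05.

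Of 12 other proteins reported to bind m6A or RNA whose folding it alters, 10 were higher and 2 lower in the longer table. Their median log2 ratio was 0.30, while over all genes 54.8% were higher and the median was 0.05. IGF2BP2, a reader that stabilises its target mRNAs, was listed at 5.99 FPKM in the longer table and 1.79 FPKM in the shorter table, a log2 ratio of 1.32. Its paralog IGF2BP3 was lower, at 5.88 FPKM in the longer table and 6.78 FPKM in the shorter table, and IGF2BP1 was higher, at 14.8 and 9.41 FPKM. These paralogs thus differed in direction. HNRNPC, which binds uridine tracts that m6A exposes, was the most abundant of the list at 292 FPKM in the longer table and 185 FPKM in the shorter table. RBMX, which binds RNA opened in the same way, had a log2 ratio of 0.72.

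Of the 8 effectors of YTH proteins in both tables, 7 were higher in the longer table, against 54.8% of all genes. The median log2 ratio of the 8 was 0.29, against 0.05 for all genes. SRSF3, a splicing factor that works with YTHDC1, was listed at 66.0 FPKM in the longer table and 38.7 FPKM in the shorter table, while YTHDC1 itself was lower in the longer table. SRSF10, which competes with SRSF3 in that role, was at 24.1 FPKM in the longer table and 17.2 FPKM in the shorter table. CNOT1, the scaffold of the deadenylase that YTHDF2 recruits, was close between the tables, at 26.3 FPKM in the longer and 25.8 FPKM in the shorter. MEIOC, the meiotic partner of YTHDC2, had no row in either table.

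The list of genes around the methyl donor S-adenosylmethionine had 4 of 5 genes in both tables. Their median log2 ratio was 0.72, against 0.05 for all genes. MAT2B, the regulatory subunit of methionine adenosyltransferase, was listed at 24.6 FPKM in the longer table and 12.0 FPKM in the shorter table, a log2 ratio of 0.98, just under 2-fold with the added 1. MAT2A, the catalytic subunit, was at 118 FPKM in the longer table and 73.7 FPKM in the shorter table. AHCY, which clears S-adenosylhomocysteine, went the other way, at 174 FPKM in the longer table and 211 FPKM in the shorter table, and its relative AHCYL1 had a log2 ratio of 0.78. MAT1A, the liver form, had no row in either table. The 7 other AlkB dioxygenases, relatives of FTO and ALKBH5, were divided into 4 higher and 3 lower. Their median was 0.07, against 0.05 for all genes, of which 54.8% were higher. With equal totals without the most abundant noncoding RNAs the division was 5 and 2, as ALKBH6 took the other sign. ALKBH7, a mitochondrial member, was at 21.9 FPKM in the longer table and 29.7 FPKM in the shorter table, and ALKBH3, which repairs alkylated DNA and RNA, at 14.7 and 10.9 FPKM. None of the 7 reached the level of ALKBH5.

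**Figure D4:**
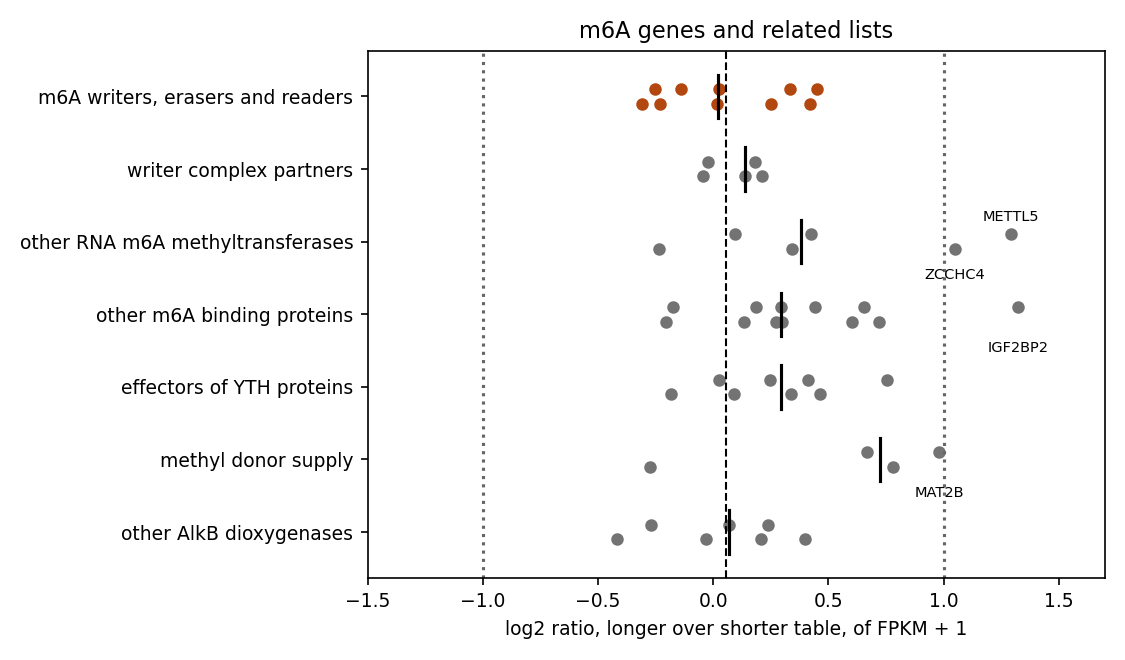
Log2 ratio (longer over shorter table, of FPKM + 1) of each gene in both tables, by list, with a black bar at the median of a list, a dashed line at the median of all genes (0.05) and dotted lines at 2-fold. The m6A writers, erasers and readers lie between -0.31 and 0.45, while METTL5, ZCCHC4 and IGF2BP2 lie past the right dotted line and MAT2B just inside it.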

How the data were processed

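The deposited values were 2 tables with 1 value per gene in a column named FPKM. By its definition this unit is adjusted for transcript length and the number of mapped fragments. Per the submitters' processing notes the build was hg38 and the tools included BWA 0.7.13, cutadapt 1.12 and MACS 1.4.2; their part in these tables, and the tool behind the FPKM, are not stated there. No column names a sample, so no comparison between the labelled groups was made. The design foresaw this case and also tests between groups, which were not run.

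The ratio of a gene listed in each table was log2((longer + 1)/(shorter + 1)), in FPKM. A gene at least 2-fold apart is past 1 on that scale. Depth is unknown. Locus starts are counted from 0 in the tables and were given 1 more here. All 52 listed members and pathway genes matched their Ensembl identifier in a gene name table. The members and lists were chosen with earlier results of these data known. Named from a list were its most abundant gene, the 2 largest ratios and any gene past 2-fold. VIRMA, ZC3H13, METTL16, PCIF1, IGF2BP1, IGF2BP3, CNOT1, MEIOC, MAT2A, MAT1A and ALKBH6 were added after their values were seen. So were the cell type markers that this rule did not pick, RUNX2 and KRT18 among them. Promoter windows came from RefSeq (GRCh38.p14). The code for the ratio and its counts was checked on values of the shorter table changed by set factors without noise. Low genes such as METTL14 and YTHDC1 were not among the genes changed, and the check gives no error of a value. Python 3.11.15, pandas 2.3.3, numpy 2.4.6 and matplotlib 3.10.9 were used.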

Additional observations from a re-analysis of the deposited data

How the results depend on the processing

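No paired analysis was possible because neither table carries a replicate number, and leaving out replicates was not run for the same reason. A value counts as moved here when it shifts by more than 0.1 on the log2 scale or crosses 2-fold, and a count when it changes by more than 1.5 times. For the 10 m6A genes the alternatives were a pseudocount of 0.1 FPKM, none, centring on the median of all genes, equal totals without 5 abundant noncoding RNAs, and summed identifiers. Under these, none of the 10 came to be 2-fold apart, and YTHDF3 and YTHDC2 changed sign under centring alone. WTAP ranged from 0.40 to 0.50, YTHDF1 from 0.37 to 0.45, and YTHDC1 from -0.46 to -0.29. METTL14 ranged from -0.33 to -0.13 and moved with the smaller pseudocounts, as YTHDC1 did, by their construction. With a pseudocount of 0.1 FPKM, MAT2B went past 2-fold at 1.03, and the log2 ratios of METTL5, ZCCHC4 and IGF2BP2 became 1.52, 1.54 and 1.69. Of the settings added after seeing the data for the pathway genes, centring brought ZCCHC4 to 0.996, under 2-fold, and equal totals brought MAT2B past it at 1.01. Among pathway genes sharing no locus, 17 were higher and 5 lower in the longer table, because fewer genes entered. Over all genes, 531 were at least 2-fold apart (291 higher and 240 lower in the longer table). With a pseudocount of 0.1 FPKM they were 2031 (1058 and 973). With none, a setting chosen after seeing the data, they were 2636 (1268 and 1368), or 1221 (715 and 506) among genes with a mean of at least 1 FPKM. A smaller pseudocount can only raise such counts. Of 145 recomputed values, 124 moved little, many of which could hardly change. Unknown depth limits METTL14 and YTHDC1 most, as the lowest of the 10.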
